A study of Mus musculus with 18 samples.

Results

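The Dlk1-Meg3 domain is an imprinted gene cluster of mouse chromosome 12. The rule named 5 of its genes, Dlk1, Rtl1, Meg3, Rian and Mirg, and took those with a row in the gene lists, which held 31053 mouse genes in all. A row was found for 4 of the 5, and Rian was not analysed here. The rule lists genes by name and uses no measured value, but it was written with earlier results of these data known.

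In such a domain the parental alleles carry different DNA methylation at a control region, here methylated on the paternal chromosome, and the genes are read from 1 allele. Dlk1, which encodes a transmembrane protein of the Notch ligand family, and Rtl1, a retrotransposon-derived gene with a known role in the placenta, are expressed from the paternal allele. Meg3, Rian and Mirg are non-coding RNAs expressed from the maternal allele, and Rian and Mirg host small nucleolar RNAs and microRNAs. DNMT1 copies methylation at cell division, whereas DNMT3A and DNMT3B set it anew, so the KO embryos ask how levels of both kinds of gene stand when 1 of these enzymes is missing.

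Single-cell RNA-seq (10x Genomics 3' v3, which counts unique molecular identifiers, UMIs, of single RNA molecules) was available for 18 libraries of single E8.5 embryos of the strain 129S4/SvJae. They comprised 7 wildtype (WT) libraries, 3 Dnmt1 null (Dnmt1 KO), 4 Dnmt3a null (Dnmt3a KO) and 4 Dnmt3b null (Dnmt3b KO) libraries. The embryos came from matings of heterozygous mice and were typed by PCR on the ectoplacental cone, and a null embryo lacks the gene in every tissue. The strain being inbred, UMIs could not be assigned to a parental allele, so the imprinted state itself was not measured.

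The positions below are those of GENCODE vM21 on GRCm38 (mm10). Dlk1 (ENSMUSG00000040856, protein coding, plus strand) spans chr12:109452823-109463336, Meg3 (ENSMUSG00000021268, lincRNA, plus strand) spans chr12:109541001-109571726, Rtl1 (ENSMUSG00000085925, protein coding, minus strand) spans chr12:109589193-109600330, Rian (ENSMUSG00000097451, processed transcript, plus strand) spans chr12:109603940-109661716 and Mirg (ENSMUSG00000097391, lincRNA, plus strand) spans chr12:109729764-109749460. The span of these 5 members, from the start of Dlk1 to the end of Mirg, covers 297 kb. The 250 bases before the RefSeq start (GRCm38.p6) of Dlk1, of the first start of Meg3 and of Mirg are shown because these are the members whose levels set the Dnmt1 KO embryos apart below. CpG dinucleotides, the sites that DNA methyltransferases act on, are in capitals, and all 3 sequences are on the plus strand. The RefSeq start of Mirg lies inside the span that GENCODE gives.
Dlk1, chr12:109452573-109452822: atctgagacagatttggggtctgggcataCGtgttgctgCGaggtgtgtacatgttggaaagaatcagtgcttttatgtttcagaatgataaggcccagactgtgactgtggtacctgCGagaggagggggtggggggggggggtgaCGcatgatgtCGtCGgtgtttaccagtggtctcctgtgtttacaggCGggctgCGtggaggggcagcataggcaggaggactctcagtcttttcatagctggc
Meg3, chr12:109540746-109540995: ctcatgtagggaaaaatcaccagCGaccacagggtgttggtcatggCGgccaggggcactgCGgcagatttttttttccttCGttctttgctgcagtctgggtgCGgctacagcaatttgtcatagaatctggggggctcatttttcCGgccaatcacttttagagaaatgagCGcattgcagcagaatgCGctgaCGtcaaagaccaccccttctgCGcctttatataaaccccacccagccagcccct
Mirg, chr12:109734731-109734980: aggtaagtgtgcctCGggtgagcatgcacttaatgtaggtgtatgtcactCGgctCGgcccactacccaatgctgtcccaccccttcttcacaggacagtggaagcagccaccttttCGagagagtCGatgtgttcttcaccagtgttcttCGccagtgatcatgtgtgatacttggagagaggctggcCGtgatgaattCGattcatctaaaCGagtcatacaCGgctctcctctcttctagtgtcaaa
These stretches held 8 CpGs for Dlk1, 10 for Meg3 and 10 for Mirg, against a median of 6 over the 32851 RefSeq promoters of the same length, 43.0% of which held at least 8 and 37.8% at least 10. The hexamer TGCCGC, the motif bound by the imprint keeper ZFP57, was searched on both strands. It occurred once before Meg3 and not before Dlk1 or Mirg, and 8.68% of all promoters held it. RefSeq starts were matched for 4 of the 5 members, and Rtl1 was the one without an entry.

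A total of 128881 barcodes held at least 1500 mouse UMIs, and the UMIs summed over them ranged from 38742721 to 262580123 per library. Dnmt1, the deleted gene, stood between 14.9 and 15.6 CPM (UMIs of a gene scaled to the same total in each library) in the Dnmt1 KO libraries against 83.7 to 114 in WT. Dnmt3a stood between 7.59 and 11.8 CPM in Dnmt3a KO against 23.5 to 34.5 in WT, but it lay below WT as well in the library labelled Dnmt3b KO 11, at 15.1 CPM, and in that labelled Dnmt3b KO 12, at 7.65 CPM. Dnmt3b UMIs stood between 57.7 and 68.3 CPM in Dnmt3b KO and between 35.9 and 87.1 CPM in WT. These 3' tags may lie outside the deleted part, so they check nothing about that label. Libraries Dnmt3b KO 1 and 2 shared 12249 barcodes, 86.5% and 79.3% of their own, and no other of the 153 library pairs shared more than 133, so they were summed to 1 sample and Dnmt3b KO has n = 3. Where a CPM is given for that sample, it is the mean of both libraries.

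Cells were also sorted into classes by the marker genes of their clusters, and a class name means cells like that type. In WT embryos the mean of each of the 4 members was highest in ExE (extraembryonic) mesoderm-like cells, the mesoderm of the yolk sac and its surroundings. Dlk1 averaged 843 ± 240 CPM there (SD, n = 7), followed by allantois-like cells with 310.1 ± 78.2 and ExE endoderm-like cells with 246 ± 76.1, and the means of the latter pair differed by less than their SDs. Surface ectoderm-like (127 ± 39.2), cardiomyocyte-like (125 ± 60.9) and endothelium-like cells (102 ± 35.04) formed the next step, and gut-like cells had 47.7 ± 17.5. Dlk1 was lowest in erythroid-like cells, at 2.44 ± 1.45 CPM (n = 7), so the means of the 17 classes spread over 346-fold. Only 5 of the 16 steps between neighbouring classes were larger than the SDs of both classes.

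Meg3 was detected in every class. It averaged 1644 ± 179 CPM in ExE mesoderm-like cells (SD, n = 7), 778 ± 180 in ExE endoderm-like cells and 628 ± 60.4 in allantois-like cells. Neural and axial classes lay in a narrow band, from 228 ± 18.7 CPM in forebrain-midbrain-like cells to 181 ± 32.0 in neuromesodermal progenitor (NMP)-like cells, and no neighbouring classes within that band differed by more than their SDs. Blood classes were lowest, with 20.5 ± 10.9 CPM in megakaryocyte-like cells (n = 3) and 8.61 ± 3.44 in erythroid-like cells. Mirg had its highest classes in the same order as Meg3, although its ExE mesoderm-like and ExE endoderm-like means (40.4 ± 10.6 CPM) did not differ by more than their SDs. It ranged from 50.1 ± 2.99 CPM in ExE mesoderm-like to 0.602 ± 0.270 in erythroid-like cells. Rtl1 was near the limit of detection, with 2.87 ± 0.536 CPM in ExE mesoderm-like cells from 148 UMIs over the 7 embryos, and no UMI was counted in megakaryocyte-like and notochord-like cells. The cells called megakaryocyte-like rest on 3 markers, among them Plek and Itga2b, and myeloid genes such as Spi1 and Laptm5 were also among their leading genes. In another run of the clustering the class was named immune-like, so its name is not stable.

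**Figure D1:**
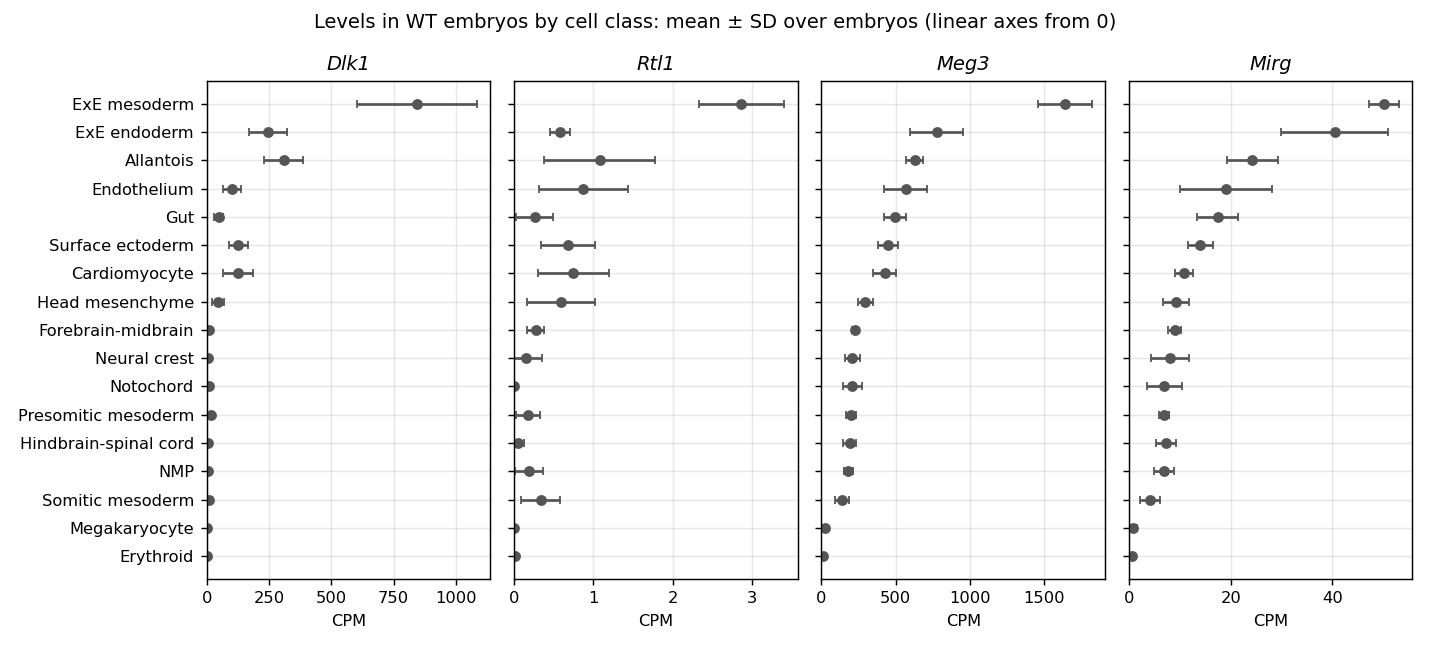
Levels of the 4 measured members in WT embryos for each cell class, as mean and SD of CPM over 3 to 7 embryos on linear horizontal axes that start at 0, with classes ordered by Meg3. Each member is highest in ExE mesoderm-like cells (843 CPM for Dlk1, 1644 for Meg3) and blood classes lie at the bottom.

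Meg3 and Mirg were also closely alike in how they varied over the 17 WT classes, and Dlk1 was less like them. On log2(CPM + 1) the correlation across class means was 0.968 between Meg3 and Mirg, 0.872 between Dlk1 and Mirg and 0.827 between Dlk1 and Meg3. Among the 7618 genes with a mean of at least 10 CPM, Mirg was the gene most like Meg3 and Meg3 the gene most like Mirg. After Mirg, Meg3 was most like Gnb1 (0.958) and Bcar1 (0.948), and after Meg3, Mirg was most like Sel1l (0.935) and Ptpn23 (0.934). Dlk1 was most like Klf6 (0.947), Tmed2 (0.920) and Uso1 (0.915), all above its values with Meg3 and Mirg. How many of all genes reach the values between members was not counted. These correlations are descriptions across classes that share the same embryos, and Rtl1 was under the level set for this comparison.

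Over whole embryos, Dnmt1 KO stood below WT in Dlk1 and above WT in the maternal RNAs Meg3 and Mirg. Dlk1 stood at 20.2, 13.01 and 12.1 CPM in Dnmt1 KO 1, 2 and 3, from 2173, 1803 and 1072 UMIs. The 7 WT embryos ranged from 69.3 over a median of 123 to 156 CPM. All 3 Dnmt1 KO embryos lay below all WT embryos, and Dlk1 fell with a fitted log2 change of -2.87 (SE 0.24, adjusted p = 1.55e-07, edgeR quasi-likelihood test over all genes). Calls followed the rule of the study, which asks for an adjusted p below 0.01 together with a minimum fold of 1 on the log2 scale in either direction, and 14.3% of the 18870 genes tested were called in this comparison (6.09% of them lower, 8.19% higher). The median over all genes was 0.01. How many of all genes have their Dnmt1 KO embryos wholly outside the WT range was not counted, here or for the separations below.

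Meg3 stood at 977, 648 and 711 CPM in Dnmt1 KO 1, 2 and 3 and between 334 and 587 CPM, with a median of 441, in the WT embryos. The 3 Dnmt1 KO embryos lay above all WT embryos. The fitted log2 difference was 0.88 (SE 0.14, adjusted p = 9.73e-05, edgeR), which passed the p limit but not the minimum fold, so Meg3 was not called over whole embryos. Mirg stood at 40.1, 28.4 and 27.9 CPM against 13.2 to 25.2 CPM in WT, again without overlap, with a log2 difference of 0.96 (SE 0.17, adjusted p = 3.09e-04, edgeR) that also missed the minimum fold. Thus 1 of the 4 members was called, and 3 passed when an adjusted p under 0.05 was asked for without a minimum fold, by which 36.8% of all genes passed.

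Rtl1, the other paternally expressed member, was not called lower over whole embryos as Dlk1 was. It stood at 0.660, 0.332 and 0.498 CPM in Dnmt1 KO 1, 2 and 3, from 71, 46 and 44 UMIs, and between 0.446 and 0.717 CPM in WT. The groups overlapped and the log2 difference was -0.04 (SE 0.27, adjusted p = 0.930, edgeR). The log2 ratio of Meg3 to Dlk1 UMIs was 5.70 ± 0.15 (SD, n = 3) in Dnmt1 KO against 1.96 ± 0.60 in WT (n = 7). Its lowest Dnmt1 KO value was 5.60 and its highest WT value 3.08, so that the groups did not overlap. By contrast, the ratio of Meg3 to Mirg UMIs was 24.2 ± 1.34 in Dnmt1 KO and 25.8 ± 1.82 in WT.

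**Figure D2:**
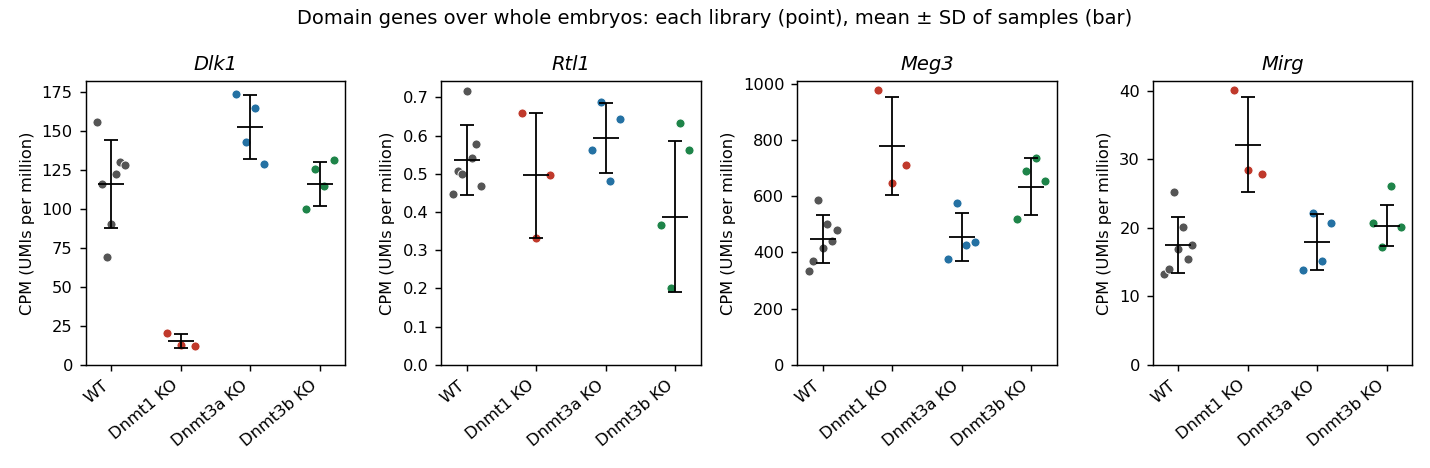
CPM of each measured member over whole embryos, with 1 point for each library and bars for the mean and SD of the samples of a group. The vertical axes are linear and start at 0. The 3 Dnmt1 KO points lie below all WT points for Dlk1 and above them for Meg3 and Mirg, whereas Rtl1 overlaps. Meg3 and Mirg were not called, and how many of all genes separate in this way was not counted.

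A sum over an embryo cannot tell fewer cells of a type from less RNA per cell, and the make-up of the Dnmt1 KO embryos differed. ExE ectoderm-like cells made up 13.7% ± 15.0 of the cells kept in Dnmt1 KO (SD, n = 3) and 0.260% ± 0.664 in WT (n = 7), ExE mesoderm-like cells 16.2% ± 3.93 and 4.63% ± 0.741, and cells without a class 32.8% ± 16.3 and 12.98% ± 2.28. Erythroid-like cells made up 1.25% ± 1.40 and 11.5% ± 6.84, hindbrain-spinal cord-like cells 0.136% ± 0.120 and 9.65% ± 2.80, and forebrain-midbrain-like cells 0% and 5.79% ± 2.28. When ExE ectoderm-like, ExE endoderm-like and unclassed cells were left out of the sums, Dlk1 remained called with -1.37 (adjusted p = 9.45e-05, edgeR). Meg3 then reached 1.93 (adjusted p = 1.24e-09) and Mirg 1.91 (adjusted p = 1.21e-08, edgeR), both called, where 18.0% of all genes tested in these sums were called. These sums do not hold the make-up equal. ExE mesoderm-like cells, where every measured member was highest in WT, were 50.6% ± 2.32 of the cells left in Dnmt1 KO and 6.31% ± 1.11 in WT. The part of make-up in these calls was not tested, and the differences within classes are given next. Rtl1 turned to 0.98 (adjusted p = 0.00656, edgeR), just under the minimum fold, so its whole-embryo value rests on which cells are summed.

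Within cell classes, 5 classes held at least 25 cells in 3 or more embryos of both groups, and 17 pairs of member and class could be tested. Of these, 6 were called in Dnmt1 KO, 4 lower and 2 higher, and 7.57% of all pairs of gene and class were called. Without a minimum fold and at an adjusted p under 0.05, 13 of the 17 passed, beside 27.7% of all pairs. The 4 lower ones were Dlk1 in endothelium-like, ExE endoderm-like, ExE mesoderm-like and gut-like cells, and the 2 higher ones were Meg3 and Mirg in gut-like cells. The Dnmt1 KO embryos 1, 2 and 3 held only 31, 41 and 39 gut-like cells, so that with a minimum of 50 cells the gut could not be tested and its 3 calls, among them those of Meg3 and Mirg, were lost.

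Dlk1 in endothelium-like cells, the lining of blood vessels, stood at 3.51, 3.18 and 10.3 CPM in Dnmt1 KO 1, 2 and 3 and between 32.6 and 146 CPM in WT, with a fitted log2 change of -4.16 (SE 0.51, adjusted p = 6.05e-06, edgeR). In ExE endoderm-like cells, the absorptive epithelium of the yolk sac, the 3 values were 16.7, 17.6 and 16.6 CPM against 95.2 to 308 in WT, with -3.83 (SE 0.38, adjusted p = 7.73e-07, edgeR). In ExE mesoderm-like cells they were 82.8, 67.8 and 44.2 CPM against 435 to 1189 in WT, with -3.62 (SE 0.27, adjusted p = 8.62e-09, edgeR). In gut-like cells only 8, 1 and 3 Dlk1 UMIs were counted, or 3.71, 0.588 and 1.57 CPM, against 14.03 to 68.4 CPM in WT, with -4.39 (SE 0.58, adjusted p = 1.28e-05, edgeR). Leaving out Dnmt1 KO 1 moved the gut value to -5.26, and leaving out Dnmt1 KO 3 moved the endothelium value to -4.86. Megakaryocyte-like cells had 3 UMIs in all in Dnmt1 KO and 14 in WT, and the log2 difference of -3.52 (SE 0.89, adjusted p = 0.0108, edgeR) was not called. In all 5 classes every Dnmt1 KO embryo lay below every WT embryo with at least 25 cells of the class. For megakaryocyte-like cells these were 3 WT embryos. The share of all pairs of gene and class that separate in this way was not counted.

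Meg3 in gut-like cells stood at 1202, 1082 and 1122 CPM in Dnmt1 KO 1, 2 and 3 and between 404 and 624 CPM in WT, with a fitted log2 change of 1.31 (SE 0.11, adjusted p = 5.14e-08, edgeR). Mirg in the same cells stood at 54.3 to 57.7 CPM against 13.2 to 24.8 in WT, with 1.80 (SE 0.15, adjusted p = 3.39e-08, edgeR). In the other classes the Meg3 difference was smaller or less certain. It was 0.59 in ExE endoderm-like cells (SE 0.17, adjusted p = 0.0162, edgeR), 0.38 in ExE mesoderm-like cells (SE 0.10, adjusted p = 0.00625), 1.74 in megakaryocyte-like cells (SE 0.46, adjusted p = 0.0135) and 0.19 in endothelium-like cells (SE 0.19, adjusted p = 0.490, edgeR). In endothelium-like cells Meg3 overlapped, with 548 to 643 CPM in Dnmt1 KO and 362 to 711 CPM in WT. Mirg was at 0.54 in ExE endoderm-like (adjusted p = 0.0228), 0.40 in ExE mesoderm-like (adjusted p = 0.00962) and 0.42 in endothelium-like cells (adjusted p = 0.394, edgeR). Whether the classes differ from each other in these values was not tested.

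**Figure D3:**
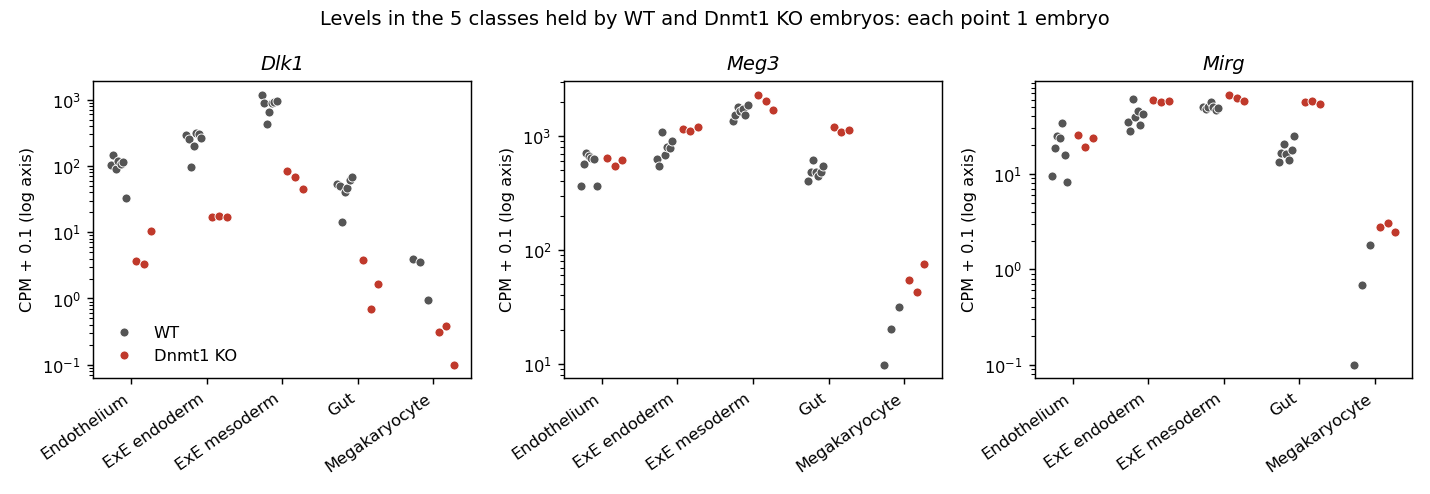
CPM of Dlk1, Meg3 and Mirg in the 5 classes held by WT and Dnmt1 KO embryos, with 1 point for each embryo on a log axis to which 0.1 CPM was added. Dlk1 of Dnmt1 KO lies below WT in all 5 classes, whereas Meg3 and Mirg are most clearly above WT in gut-like cells (1082 to 1202 CPM against 404 to 624 for Meg3). The share of all pairs of gene and class that separate in this way was not counted.

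The same class name did not always stand for the same clusters of cells. In ExE endoderm, cluster 9 held 70.7% of the Dnmt1 KO cells, and cluster 1 held 49.6% of the WT cells. In ExE mesoderm, cluster 23 held 70.2% of the Dnmt1 KO cells, and cluster 26 held 38.0% of the WT cells. In gut, cluster 13 held 85.6% of the Dnmt1 KO cells and 48.1% of the WT cells. The members were therefore also read within single clusters that both groups held with at least 25 cells in an embryo. In cluster 2 of the ExE endoderm-like cells, led by Apoa1, Dlk1 lay between 0 and 18.2 CPM in the 3 Dnmt1 KO embryos and between 72.5 and 268 CPM in the 7 WT embryos. In cluster 13 of the gut-like cells, led by Nepn, Dlk1 lay between 0.631 and 3.72 CPM against 17.4 to 84.4 CPM, and in cluster 15 of the endothelium-like cells, led by Gja4, between 2.86 and 11.8 CPM against 42.6 to 243 CPM. None of these 3 pairs of ranges overlapped, but the clusters were made from the expression of these same cells, so they are given with no test. In cluster 22 of the ExE mesoderm-like cells, led by Tdo2 and Lum, Dlk1 lay between 22.6 and 24.5 CPM in 2 Dnmt1 KO embryos, from 34 UMIs, and between 189 and 637 CPM in 6 WT embryos. In cluster 19 of the ExE endoderm-like cells 1 Dnmt1 KO embryo had 27.4 CPM against 72.1 to 280.5 CPM in 6 WT embryos. In cluster 11 of the endothelium-like cells, led by Lyve1, 1 Dnmt1 KO embryo had 6.92 CPM, from 5 UMIs, which lay within the WT range of 5.91 to 92.1 CPM. Meg3 in cluster 13 lay between 1153 and 1201 CPM in Dnmt1 KO (median 1173) and between 491 and 781 CPM in WT (median 626). In cluster 15 the ranges overlapped (572 to 843 against 351 to 1005 CPM). Meg3 also overlapped in cluster 2 (254 to 487 against 91.4 to 548 CPM) and in cluster 11 (88.6 CPM against 32.5 to 139 CPM). In cluster 22 it lay below WT in Dnmt1 KO, at 158 to 178 CPM against 203 to 569 CPM in WT, and in cluster 19 at 15.7 CPM, from 4 UMIs, against 41.5 to 81.9 CPM. In these ExE clusters held by both groups, Meg3 of Dnmt1 KO lay within or below the WT range, whereas its differences in the ExE classes were above 0. Clusters 2, 19 and 22 are shallow, with median depths of 0.199, 0.328 and 0.278 relative to the kept cells of each library. Clusters 9 and 23 had 1.62 and 0.996. WT medians of Meg3 were 236, 63.5 and 275 CPM in clusters 2, 19 and 22, under the WT means of their classes. The part of depth or of the clusters' make-up in the class values was not tested.

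Beside cluster 17, the ExE ectoderm-like cells described below, the other clusters held by both groups were 33, 20, 5 and 3. In cluster 33, the megakaryocyte-like cells, Dlk1 lay between 0 and 0.280 CPM in Dnmt1 KO and between 0.853 and 4.48 CPM in WT, and Meg3 between 45.6 and 84.8 CPM against 9.70 to 31.6 CPM. In the unnamed cluster 20, 1 Dnmt1 KO embryo had 3.03 CPM of Dlk1 against 42.2 to 147 CPM in WT, and its 112 CPM of Meg3 lay within the WT range of 37.7 to 131 CPM. In the unnamed cluster 5 both genes overlapped, with 4.44 to 6.001 CPM of Dlk1 in 2 Dnmt1 KO embryos against 4.74 to 98.9 CPM in WT, and 88.8 to 134 CPM of Meg3 against 35.5 to 124 CPM. In cluster 3 of the erythroid-like cells 1 Dnmt1 KO embryo had no Dlk1 UMI, within the WT range of 0 to 6.67 CPM, and 30.3 CPM of Meg3, from 9 UMIs, against 7.31 to 29.2 CPM.

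Clusters 9, 23, 24 and 27 were not held by WT embryos in these numbers, but some of their cells came from other KO embryos. In cluster 23, led by Tdo2, Dlk1 stood at 544 CPM in Dnmt3b KO 12 and between 45.9 and 82.9 CPM in the Dnmt1 KO embryos, while Meg3 stood at 2018 CPM and between 1853 and 2330 CPM. In cluster 9, led by Pkd1l2, Dlk1 lay between 127 and 187 CPM in 3 Dnmt3b KO libraries and between 16.9 and 17.5 CPM in the Dnmt1 KO embryos, and 1 Dnmt3a KO embryo had 109 CPM. Meg3 in cluster 9 lay between 1120 and 1294 CPM in Dnmt1 KO, above the 562 to 819 CPM of the Dnmt3b KO libraries and the 693 CPM of the Dnmt3a KO embryo.

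ExE ectoderm-like cells, the trophoblast progenitors, were numerous in Dnmt1 KO (1146 cells) and were found in numbers in 1 WT embryo only (127 cells), under the minimum of 3 embryos set for a test, so they were not tested. Dlk1 was nearly absent in both, with 0.276 to 0.676 CPM in the Dnmt1 KO embryos and 1.33 CPM, from 4 UMIs, in WT 2. Meg3 stood at 42.7 to 64.3 CPM and 29.2 CPM there, far under its level in ExE mesoderm-like cells of the same embryos. An unnamed cluster of Dnmt1 KO cells led by the pluripotency gene Pou5f1 (cluster 24, 816 cells) had 1.70 to 2.88 CPM of Dlk1 and 440 to 531 CPM of Meg3, and 36 such cells of Dnmt3b KO 12 had 9.30 and 119.8 CPM. Another led by Mesp1 (cluster 27, 736 cells) had 8.82 to 11.6 CPM of Dlk1 and 440 to 548 CPM of Meg3, and 32 such cells of Dnmt3b KO 12 had 14.9 and 395 CPM.

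Rtl1 in Dnmt1 KO gave mixed values in the classes. In ExE mesoderm-like cells, where it was highest in WT, it stood between 1.07 and 1.33 CPM against 2.39 to 3.93 CPM in WT. The log2 difference of -1.12 (SE 0.39, adjusted p = 0.0304, edgeR) was not called. In gut-like cells it stood between 1.04 and 2.32 CPM, from 9 UMIs, against 0 to 0.687 CPM in WT, from 17 UMIs, and it did not pass the filter on low counts for a test. The differences in endothelium-like (-0.70, adjusted p = 0.572) and ExE endoderm-like cells (-0.20, adjusted p = 0.692, edgeR) were not called. The value in endothelium-like cells was -1.29 without Dnmt1 KO 1 and -0.27 without Dnmt1 KO 3.

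The share of single cells with a UMI was compared after each cell had been thinned to 1500 UMIs. Over whole embryos, 1.87% ± 0.887 of cells had a Dlk1 UMI in Dnmt1 KO (SD, n = 3) and 10.5% ± 2.33 in WT (n = 7). Without thinning the shares were 19.8% and 36.2%, with median depths of 4823 to 56928 and 4845 to 54867 UMIs per cell. In erythroid-like cells, the WT class with the least Dlk1, the thinned share was 0.446% ± 0.596. In ExE mesoderm-like cells, 58.8% ± 13.7 of WT cells had a Dlk1 UMI and 43.2% ± 11.96 had Dlk1 and Meg3 UMIs together, against 6.96% ± 2.88 and 5.16% ± 2.54 in Dnmt1 KO. Cells with Meg3 but no Dlk1 UMI made up 66.5% ± 17.4 of them in Dnmt1 KO and 24.3% ± 12.2 in WT. In gut-like cells 0 of 111 Dnmt1 KO cells of the 3 embryos had a Dlk1 UMI after thinning, which allows a share of up to 2.70% by counting error alone, if cells are counted as independent. This limits cells with a UMI at that depth and not cells expressing Dlk1, since the same class held 12 Dlk1 UMIs before thinning.

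None of the 4 members was called in Dnmt3a KO over whole embryos, where 0.207% of all genes were called by edgeR, and none was called by DESeq2 or had an unadjusted p under 0.05, as 9.41% of all genes did. An adjusted p under 0.05 alone was reached by 0.53% of all genes. Dlk1 stood at 165, 129, 174 and 143 CPM in Dnmt3a KO 1, 2, 13 and 14, and 2 of the 4 lay above the highest WT embryo (156 CPM). These were Dnmt3a KO 1 and 13. They and WT 1, the highest WT embryo, are among the 4 libraries whose reference also held human genes. ExE mesoderm-like cells made up 6.50% ± 0.964 of the cells kept in Dnmt3a KO and 4.63% ± 0.741 in WT, and the part of make-up was not tested. How many of all genes have embryos so placed was not counted. The log2 difference of Dlk1 was 0.38 (SE 0.18, adjusted p = 0.535, edgeR, unadjusted p = 0.0518). Meg3 ranged from 376 to 576 CPM, within the WT range, with a difference of 0.00 (SE 0.13). Mirg differed by 0.02 (SE 0.16) and Rtl1 by 0.13 (SE 0.23), both with overlap. Over 17 classes, 53 pairs of member and class were tested and 0 were called by edgeR or DESeq2, against 0.122% of all such pairs by edgeR (0.398% at an adjusted p under 0.05 alone), and 7 had an unadjusted p under 0.05, as did 9.87% of all pairs. The Dlk1 difference was above 0 in 15 of 16 classes, from -0.40 to 1.19 with a median of 0.40, and its lowest adjusted p was 0.288 (edgeR). The classes share the same embryos, so these signs are not separate observations, and such signs were not counted over all genes.

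In Dnmt3b KO, where 1.86% of all genes were called, 0 of the 4 members were called by edgeR or DESeq2, and 1 had an unadjusted p under 0.05, as did 17.9% of all genes. An adjusted p under 0.05 alone was reached by 3.82% of all genes. Meg3 stood at 735 and 654 CPM in Dnmt3b KO 1 and 2, which count as 1 sample, and at 518 and 690 CPM in Dnmt3b KO 11 and 12. Of the 3 samples, 2 lay above the highest WT embryo (587 CPM), and the log2 difference was 0.47 (SE 0.14, adjusted p = 0.0766, edgeR). How many of all genes have samples so placed was not counted. ExE mesoderm-like cells, where Meg3 was highest in WT, made up 7.52% ± 3.03 of the cells kept in the Dnmt3b KO libraries. In WT they made up 4.63% ± 0.741, and the part of make-up in the Meg3 difference was not tested. Dlk1 (-0.04, SE 0.20) and Mirg (0.19, SE 0.17) overlapped with WT. Rtl1 was lowest in Dnmt3b KO 12 (0.202 CPM) and Dnmt3b KO 11 (0.366 CPM), both below the WT range, with a difference of -0.49 (SE 0.26, adjusted p = 0.339, edgeR). These are the libraries with low Dnmt3a. Without both, Meg3 was at 0.55 and Rtl1 turned to 0.06, from a fit in which the 1 sample left is assumed to vary like the other groups. Over single libraries left out, the Rtl1 value ranged from -0.56 to -0.16. When ExE ectoderm-like, ExE endoderm-like and unclassed cells were left out of the sums, Meg3 was at 0.69 (adjusted p = 0.00132, edgeR) and still under the minimum fold.

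Over 15 classes, 49 pairs of member and class were tested in Dnmt3b KO and 0 were called by edgeR or DESeq2, against 0.69% of all pairs by edgeR. Of these 49 pairs, 17 had an unadjusted p under 0.05, beside 15.2% of all pairs of gene and class. In 12 of the 15 classes, which share the same embryos, the Meg3 difference was above 0, with a median of 0.43. The classes are thus not separate observations, and such signs were not counted over all genes. Meg3 passed an adjusted p of 0.05 in allantois-like cells (0.64, SE 0.14, adjusted p = 0.0281) and in ExE mesoderm-like cells (0.43, SE 0.10, adjusted p = 0.0231, edgeR), as did Rtl1 in ExE mesoderm-like cells (-1.38, SE 0.39, adjusted p = 0.0483, edgeR). By that rule 1.62% of all pairs passed. The Dlk1 difference was below 0 in 10 of the 15 classes and above 0 in 5, from -0.69 to 1.54 with a median of -0.33. Its lowest adjusted p was 0.174 (edgeR). The Rtl1 value was -0.87 (adjusted p = 0.304, edgeR) without Dnmt3b KO 12, one of the libraries with low Dnmt3a, and it ranged from -1.57 to -0.87 over all single libraries left out.

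**Figure D4:**
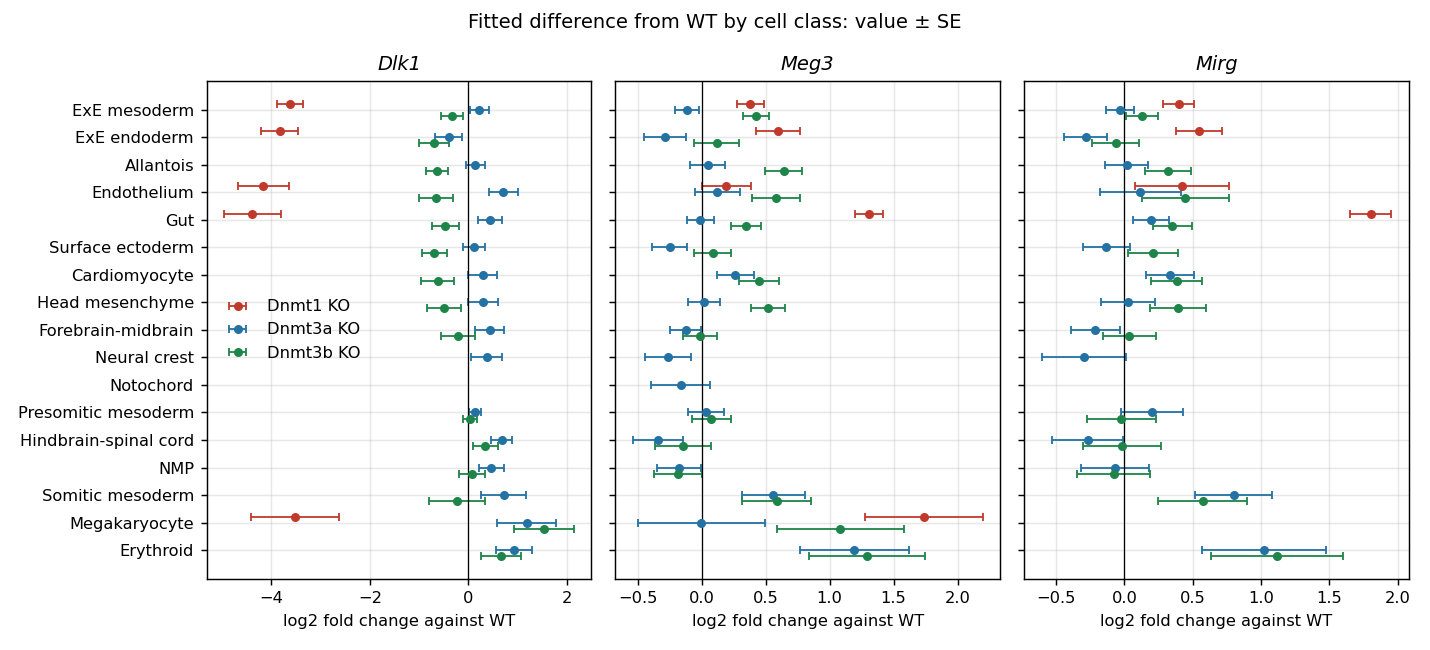
Fitted log2 difference from WT, with its SE, for Dlk1, Meg3 and Mirg in each class that could be tested, in Dnmt1 KO (red), Dnmt3a KO (blue) and Dnmt3b KO (green). Dlk1 of Dnmt1 KO lies between -4.39 and -3.52, apart from both other groups, while Meg3 of Dnmt3b KO lies above 0 in 12 of 15 classes. The classes share the same embryos, and such signs were not counted over all genes.

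The KO groups were also compared with each other in the same fit. Dlk1 was lower in Dnmt1 KO than in Dnmt3a KO by a fitted log2 change of -3.25 (SE 0.26, adjusted p = 1.71e-07) and than in Dnmt3b KO by -2.83 (SE 0.26, adjusted p = 1.41e-06, edgeR), both called, beside 13.4% and 8.84% of all genes. The Meg3 difference was 0.88 between Dnmt1 KO and Dnmt3a KO (SE 0.16, adjusted p = 4.16e-04) and 0.42 between Dnmt1 KO and Dnmt3b KO (SE 0.17, adjusted p = 0.0716, edgeR), neither called. Mirg differed by 0.94 (adjusted p = 0.00130) and 0.78 (adjusted p = 0.0112, edgeR) in these comparisons. Between Dnmt3a KO and Dnmt3b KO 0 members were called by edgeR or DESeq2, beside 0.217% of all genes by edgeR, and 2 had an unadjusted p under 0.05 (6.9% of all genes). The largest difference was 0.62 for Rtl1 (SE 0.29, adjusted p = 0.707, edgeR). Without single libraries it ranged from 0.32 to 0.70, and that of Meg3 from -0.55 to -0.41. Dnmt3b KO 11 and 12 had low Dnmt3a as well (15.1 and 7.65 CPM, against 7.59 to 11.8 in Dnmt3a KO), which limits what this comparison can show.

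The genes around the members were read in the same way. Within 500 kb of the span from Dlk1 to Mirg 12 other genes had rows, of which 5 passed the filter on low counts. In Dnmt1 KO, Begain, 385 kb before Dlk1, fell with a fitted log2 change of -1.94 (SE 0.23, adjusted p = 6.98e-06, edgeR). Gm26945, a lincRNA inside the span of Rian, rose by 1.18 (SE 0.32, adjusted p = 0.00774, edgeR). B830012L14Rik, a lincRNA between Rian and Mirg, was at 0.87 (SE 0.18, adjusted p = 0.00134, edgeR) and thus missed the minimum fold like Meg3 and Mirg. Gm26906, on the minus strand over the end of Meg3, was at 1.47 (SE 0.43, adjusted p = 0.0122, edgeR). Wdr25, 424 kb before Dlk1, was at -0.50 (SE 0.16, adjusted p = 0.0190, edgeR) and was not called. By default the named counting tool takes reads of the sense strand only. Farther out, Dio3, which inactivates thyroid hormone and lies 530 kb after Mirg, fell with a fitted log2 change of -1.91 (SE 0.32, adjusted p = 2.08e-04, edgeR). The transporter gene Slc25a29 fell by 1.14 (SE 0.23, adjusted p = 8.45e-04, edgeR). A separate list of neighbours, drawn up by name, reached farther out and did not hold Gm26945 or Gm26906. Of its 12 genes tested, 3 fell, beside 6.09% of all genes, and 9 were not called, with a median of -0.30 against 0.01 over all genes. In Dnmt3a KO and in Dnmt3b KO 0 of these 12 were called by edgeR or DESeq2, and 0 had an unadjusted p under 0.05. All comparisons with WT share the same WT samples.

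**Figure D5:**
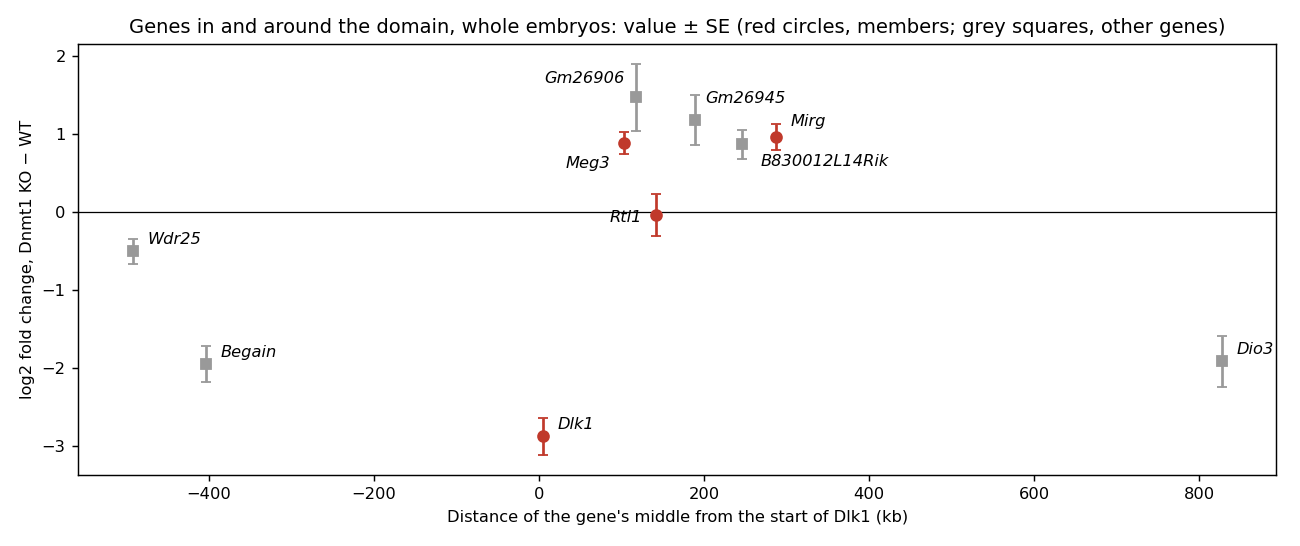
Log2 fold change between Dnmt1 KO and WT over whole embryos, with its SE, against the distance of each gene's middle from the start of Dlk1 in kb, where red circles are members and grey squares are other genes tested within 500 kb, and Dio3. Dlk1 (-2.87), Begain (-1.94), Dio3 (-1.91) and, less far, Wdr25 (-0.50) and Rtl1 (-0.04) lie below 0, and Meg3, Mirg and the non-coding genes beside them lie between 0.87 and 1.47.

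Imprinted genes of other domains showed both directions in Dnmt1 KO. Over all genes 6.09% were called lower and 8.19% higher. Among 11 other maternally expressed genes, 7 fell and 2 rose, with a median log2 fold change of -1.83. Among 23 paternally expressed genes tested, 3 fell and 5 rose, with a median of 0.45. The largest falls were Grb10, a growth factor receptor adaptor (-6.42, SE 0.28), Cdkn1c, a cell cycle inhibitor (-5.01, SE 0.22), and Zim1 (-3.80, SE 0.28). The largest rises, with the list of imprint keepers included, were Dnmt3l, a partner of the de novo methyltransferases (5.75, SE 0.63), Ascl2, a trophoblast transcription factor (4.35, SE 0.63), and Sfmbt2 (2.39, SE 0.31). Dnmt3l and Ascl2 were among the 10 leading genes of the ExE ectoderm-like cluster, whose cells made up 13.7% of Dnmt1 KO and 0.260% of WT cells, and the part of these cells in both rises was not tested. Cdkn1c was among the 10 leading genes of cluster 14 of the allantois-like cells, a class that made up 0.164% of Dnmt1 KO and 3.56% of WT cells, and its part in that fall was not tested either. Of the 12 imprint keepers 1 rose and 1, Dnmt1 itself, fell, shares near those over all genes. In Dnmt3a KO the 1 gene called in these lists by edgeR was Dnmt3a (-1.68, SE 0.25, adjusted p = 0.00259, edgeR), while DESeq2 gave 1 higher maternally expressed gene. In Dnmt3b KO there were 0 by edgeR or DESeq2, with 5 maternally expressed, 5 paternally expressed and 4 keeper genes at an unadjusted p under 0.05, beside 17.9% of all genes. In Dnmt3a KO these counts were 3, 6 and 4, beside 9.41% of all genes.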

How the data were processed

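Levels were measured in 18 single-embryo libraries. The deposited files hold raw UMI counts of genes by cell barcode, which the authors made with Cell Ranger. The file headers name version 3.1.0 or 5.0.0 and the study's methods name 5.0.0 with mm10. For 4 libraries the reference also held human genes, which were dropped. Whole-embryo sums took every barcode with at least 1500 mouse UMIs. For classes, cells over 30% mitochondrial or 35% ribosomal protein UMIs and doublets (Scrublet at 0.8% per 1000 cells) were left out, and 109962 were kept. Cells were clustered with scanpy 1.11.5, and clusters were named from marker lists when they showed at least 3 markers, with score limits set after the scores were seen. The cluster that makes up the megakaryocyte-like class was named immune-like in a run with more threads.

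Counts were summed for each embryo and class with at least 25 cells and tested with edgeR 4.0.16 (R 4.3.3; filterByExpr, TMM, quasi-likelihood test) in 1 fit of all 4 groups, with Benjamini-Hochberg adjustment over all genes. The SE is the log2 fold change divided by the square root of F. The test was checked on simulated counts. The members and lists were chosen with earlier results of these data known. Named beside the members were called neighbours, the 3 largest rises and falls among called genes of the imprinted and keeper lists, and the 3 genes most like each member across WT classes. Alternatives included DESeq2 1.42.0, RLE factors, no low-count filter, thinned depth, other cell sets, covariates, a replicate block and leaving out libraries. Each sample was taken as a separate embryo. The Dnmt3b KO libraries that shared most of their barcodes were not taken as separate embryos and counted as 1 sample. Intervals and limits on counts cover counting error only.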

Additional observations from a re-analysis of the deposited data

Results flagged for a closer look

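In 11 of 140 groups of 4 to 10 samples the highest embryo lay far from the others by Dixon's test, which flags about 1 group in 20 by chance. In WT these were somitic mesoderm-like cells with 26.5 CPM of Dlk1 (next embryo 6.50), 228 CPM of Meg3 (next 143) and 7.80 CPM of Mirg (next 4.29), and notochord-like cells with 12.1 CPM of Mirg (next 5.73). ExE mesoderm-like cells had 56.1 CPM of Mirg in 1 WT embryo (next 50.5). Rtl1, which rests on few UMIs, reached 0.0704 CPM in erythroid-like cells (next 0) and 0.189 CPM in hindbrain-spinal cord-like cells (next 0.0712) of WT embryos. In Dnmt3a KO, Mirg reached 35.6 CPM in allantois-like cells (next 21.7). Rtl1 in Dnmt3a KO reached 3.78 CPM in ExE mesoderm-like cells (next 2.02), 0.408 CPM in presomitic mesoderm-like cells (next 0) and 0.853 CPM in surface ectoderm-like cells (next 0.414).

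Rtl1 lay on opposite sides of WT in 2 classes of Dnmt1 KO embryos. All 3 embryos were above all WT embryos in gut-like cells and below all WT embryos in ExE mesoderm-like cells. The gut-like side rests on 9 UMIs in Dnmt1 KO and 17 in WT and did not pass the filter on low counts. How many of all pairs of gene and class separate in this way was not counted. The difference between the 2 classes was not tested.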

How the results depend on the processing

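Over whole embryos, Dlk1 in Dnmt1 KO kept its direction and its call under every alternative run, with a range from -3.10 to -2.76 when single libraries were left out. Leaving out ExE ectoderm-like, ExE endoderm-like and unclassed cells gave 1.93 for Meg3, 1.91 for Mirg and 0.98 for Rtl1 in Dnmt1 KO, 0.21 for Dlk1 in Dnmt3b KO, 3 called members, and WT means of 345 CPM for Meg3 and 11.5 CPM for Mirg. It also gave 1 called higher neighbour and 8 higher paternally expressed genes in Dnmt1 KO, 1 higher maternally expressed gene each in Dnmt3a KO and Dnmt3b KO, and 1 higher keeper in Dnmt3b KO. With cells passing the quality limits, Mirg was at 1.02 and 2 members were called. With the Y-linked covariate, Meg3 was at 1.00, 2 members and 2 higher keepers were called, and Dnmt3a KO gave -0.31 for Rtl1 and -0.016 for Mirg. Without a minimum fold and at an adjusted p under 0.05, Meg3 (0.88) and Mirg (0.96) passed, so 3 members did, with 13 pairs of member and class in Dnmt1 KO and 3 in Dnmt3b KO. The lists then had 1 higher and 6 lower neighbours, 12 higher paternally expressed genes, 2 higher and 3 lower keepers in Dnmt1 KO, and 1 and 2 higher maternally expressed genes in Dnmt3a KO and Dnmt3b KO. Asking for 50 cells left 3 called pairs in Dnmt1 KO, and no low-count filter gave 1 in Dnmt3b KO. DESeq2, no low-count filter, separate Dnmt3b KO 1 and 2, and only 2 groups in the fit each gave 1 higher maternally expressed gene in Dnmt3a KO. The causes were not tested.

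Without single libraries, the range in Dnmt1 KO was -0.26 to 0.19 for Rtl1, 0.72 to 0.99 for Meg3 and 0.81 to 1.09 for Mirg, with 1 to 2 members called. Mirg was called without Dnmt1 KO 2 (1.03), Dnmt1 KO 3 (1.03) or WT 3 (1.09). In Dnmt3a KO the range was -0.073 to 0.091 for Meg3 and -0.082 to 0.14 for Mirg, and in Dnmt3b KO -0.12 to 0.076 for Dlk1. Between Dnmt1 KO and Dnmt3a KO it was -0.39 to 0.058 for Rtl1 and 0.79 to 1.04 for Mirg, with 1 to 2 members called (2 without Dnmt1 KO 2, Dnmt1 KO 3 or Dnmt3a KO 2). In ExE endoderm-like cells Rtl1 ranged from -0.72 to 0.082. Between Dnmt1 KO and Dnmt3b KO Meg3 ranged from 0.26 to 0.53. In Dnmt1 KO, 0 to 1 neighbours (1 without WT 3) and 1 to 2 keepers (2 without Dnmt1 KO 1 or WT 7) were higher. In Dnmt3a KO, 0 to 1 maternally expressed genes were higher (1 without Dnmt1 KO 2, Dnmt1 KO 3, Dnmt3b KO 12 or WT 2) and 0 to 1 keepers lower (0 without Dnmt3a KO 1, 2 or 13).

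Correlations did not show that the replicate numbers of the labels pair the embryos, and shared litters or batches were not tested. Of 13 same-numbered pairs 6 correlated above 0.1 (-0.442 to 0.504). The highest was Dnmt3a KO 1 with WT 1, both counted on a reference that also held human genes. Of 10 libraries with a shared replicate number, 1 was most like a library of its own number. With these numbers as a replicate block, Rtl1 was at 0.027 in Dnmt1 KO and 0.16 in Dnmt3b KO. The lists gave 3 higher paternally expressed genes and 3 higher keepers in Dnmt1 KO and 0 lower keepers in Dnmt3a KO.

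2 alternatives were chosen after seeing the data. Without Dnmt3b KO 11 and 12, Rtl1 was at 0.064 in Dnmt3b KO and 1 maternally expressed gene was higher in Dnmt3a KO. Without Dnmt3b KO 1 and 2, 1 maternally expressed gene was higher in Dnmt3a KO and in Dnmt3b KO, and 1 keeper was lower in Dnmt3b KO. Few Rtl1 UMIs limit what its values can show.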
